A study of Mus musculus with 16 samples.

Results

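The genes described here carry the signal by which acetylcholine and adenosine act on the potassium channel GIRK in heart muscle. They are *Chrm2* and *Adora1*, the M2 muscarinic and A1 adenosine receptors, *Gnao1* and *Gnai2*, alpha subunits of the inhibitory G proteins, *Kcnj3* and *Kcnj5*, the GIRK1 and GIRK4 channel subunits, and *Rgs6* and *Rgs4*, regulators that shorten G protein signals. They were chosen by name, with earlier results of these data known. Every probe that the scanner output assigns to 1 of the 8 genes was taken, which gave 13 of the 55681 probes on the array, or 8 of the 34821 gene and transcript names that its probes carry. Of these 13 probes, 10 were well above background on all 4 arrays of at least 1 group, 7 were so on all 16 arrays, and 3 were so on 0 arrays (both *Rgs4* probes and 1 of 3 *Rgs6* probes).

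RNA came from sorted cells of wild-type CD1 mouse hearts. At E15.5, living cells that carried ERBB-2 were separated into ITGA6low (EL) and ITGA6high (EH) fractions, and at P2 cells depleted of non-myocytes on magnetic columns were separated into ITGA6low (PL) and ITGA6high (PH) fractions. ITGA6 is the integrin α6 chain, CD49f, whose level the study used to part ventricular from atrial cardiomyocytes (CMs). Each of the 4 groups had 4 samples, numbered 2, 3, 6 and 8 at E15.5 and 2, 3, 4 and 5 at P2. Each sort started from pooled hearts, 20 to 30 at E15.5 and 15 at P2, so that no value belongs to a single animal, and an amplification of 10 ng RNA on an array of its own.

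In atrial muscle and in pacemaker tissue, acetylcholine from the vagus nerve binds the M2 receptor and adenosine binds the A1 receptor. Both receptors activate Gi and Go proteins, whose freed beta-gamma dimers open channels of GIRK1 and GIRK4. The outflow of potassium hyperpolarizes the cell, which slows the sinus node and shortens the atrial action potential. RGS proteins end the signal by speeding GTP hydrolysis on the alpha subunit, and RGS6 does so as a partner of the beta subunit Gβ5.

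The ITGA6high fraction had more signal than the ITGA6low fraction for *Kcnj3*, *Kcnj5*, *Chrm2*, *Rgs6* and the brighter *Gnao1* probe at both stages. *Adora1* was higher in EH than in EL and did not differ detectably between PH and PL. *Gnai2* ran the other way and fell from PL to PH. *Rgs4* was not well above background in any sample. Signals are quantile-normalized intensities on a linear scale, and since probes differ in brightness, each probe is compared with itself only. "Rose" and "fell" are used where the limma fit gave an adjusted p (Benjamini-Hochberg, over all probes) of at most 0.05, and "called" for such a probe with a change of at least 3-fold, the limit in the study's methods.

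Between EH and EL, 8 of the 13 probes passed the test, 8 higher and 0 lower in EH, from 6 of the 8 genes. Over the whole array 8.1% of the probes passed, and 19% of the 21529 probes that were well above background on all arrays of EL or EH. The 3-fold limit left 4 called probes of 3 genes, against 1.63% of the array. Between PH and PL, 9 of the 13 probes passed, 8 higher and 1 lower in PH, against 11.6% of the array and 27.9% of the 20142 probes well above background in PL or PH. Here 6 probes of 4 genes were called, against 2.65% of the array. The samples of both fractions did not overlap for 9 of the 13 probes at E15.5 and for 9 at P2, whereas 16.1% and 12.8% of all probes showed no overlap. The median log2 fold-change of the 13 probes was 1.12 for EH against EL and 1.36 for PH against PL, beside medians of -0.02 and -0.01 over all probes. Since the genes were chosen with earlier results known and some have several probes, these counts describe the set and test nothing.

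**Figure D1:**
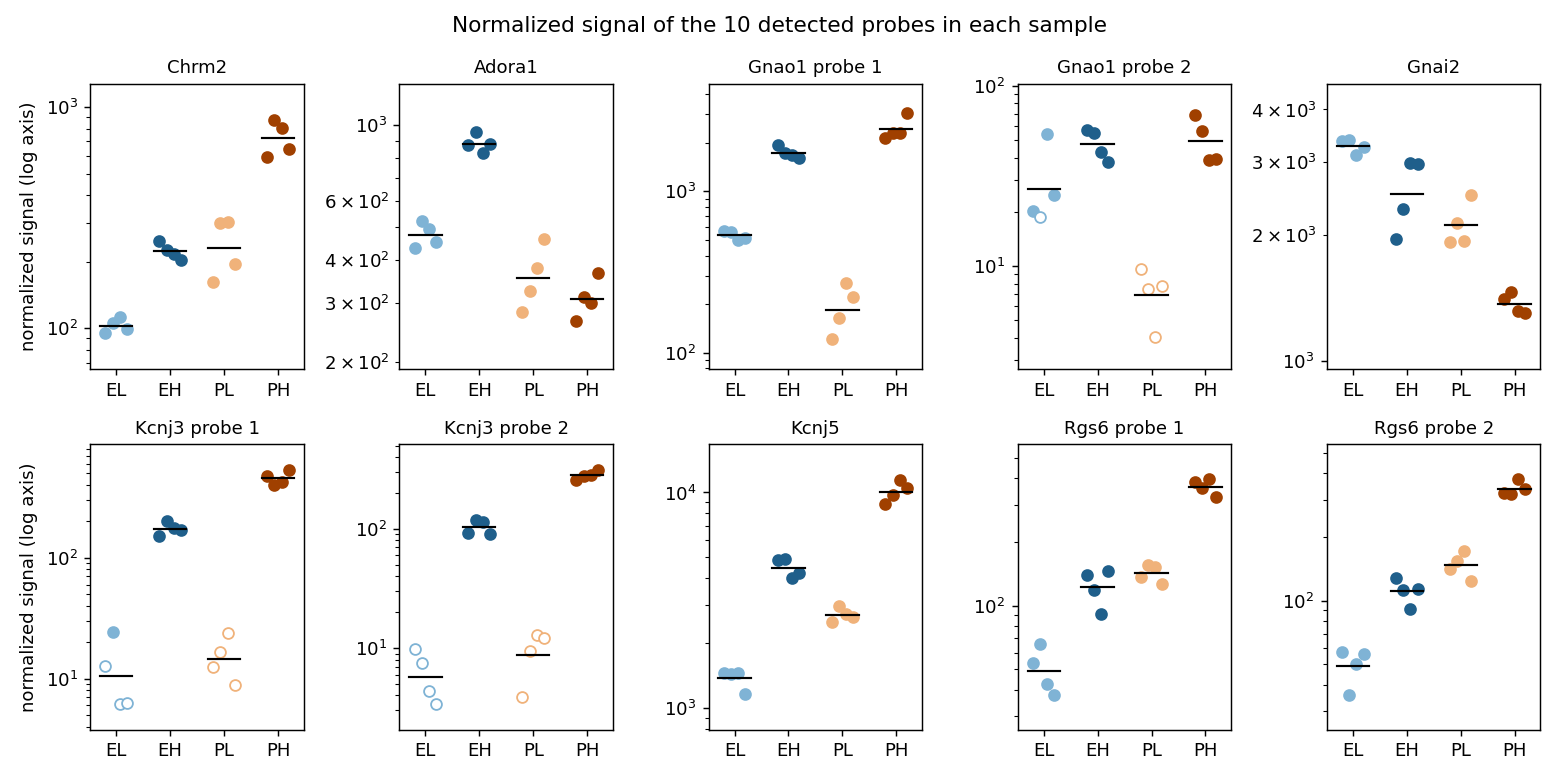
Normalized signal (log axis) of the 10 probes that were detected, in each of the 16 samples, by group (EL, EH, PL, PH). Filled points were well above background and open points were not, and the black line is the mean of the log2 values of 4 samples. Each panel has an axis of its own. *Kcnj3* is open in PL and filled at 401 to 535 (probe 1) in PH, while *Adora1* stands highest in EH.

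The M2 receptor gene *Chrm2* was read by 1 probe at chr6:36474550-36474609 (mm9, + strand), which is printed 5′ to 3′ because it alone carries the receptor's result.
Chrm2: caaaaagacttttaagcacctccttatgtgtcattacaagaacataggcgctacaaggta
Its signal was 95.3, 106, 113 and 98.8 in EL and 249, 226, 217 and 205 in EH. It was 162, 299, 303 and 196 in PL and 597, 879, 805 and 649 in PH. All EH samples lay above all EL samples and all PH samples above all PL samples. *Chrm2* rose 2.17-fold in EH (log2 fold-change 1.12 ± 0.19 SE, adjusted p = 0.00155) and 3.12-fold in PH (1.64 ± 0.19, adjusted p = 3.25e-05). Within slide 1 and slide 3 of the E15.5 arrays the log2 fold-change of EH against EL was 1.22 and 0.99. EH sample 6 was the only EH sample on slide 3, so the slide 3 values here and below rest on it. The call at P2 rests close to the 3-fold limit, since the log2 fold-change was 1.47 without PL sample 2, 1.56 without PL sample 5 and 1.55 without PH sample 3. The levels ran EL, EH, PL, PH from low to high. EH and PL, the middle groups, did not differ beyond their spread (log2 difference 0.05, 95% interval -0.35 to 0.46, adjusted p = 0.901).

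The A1 receptor gene *Adora1* had 1 probe at chr1:136095833-136095892 (mm9, - strand), of which the first 30 bases are given as the receptor that departs from the others.
Adora1: tagaaggagagacctgacatgttgtcctta
The signal was 435, 523, 495 and 453 in EL and 872, 957, 829 and 880 in EH. At P2 it was 281, 324, 380 and 463 in PL and 265, 311, 298 and 367 in PH. The E15.5 fractions were apart, whereas the P2 fractions overlapped. *Adora1* rose 1.86-fold in EH (log2 fold-change 0.89 ± 0.14 SE, adjusted p = 0.000814). For PH against PL the log2 difference was -0.21, with a 95% interval of -0.50 to 0.09 (adjusted p = 0.505). The fraction effect differed between the stages, by -1.10 on the log2 scale (adjusted p = 0.00602), and this difference passed the test in all fits made of it (adjusted p 0.000366 to 0.0324). From EH to PH *Adora1* fell by 1.52 on the log2 scale, or 2.87-fold (adjusted p = 3.6e-06), the opposite direction to *Chrm2*. Within slides 1 and 3 the log2 fold-change of EH against EL was 1.02 and 0.70. The order of the groups from high to low was EH, EL, PL, PH. PL and PH did not differ beyond their spread. From EL to PL *Adora1* fell by 0.42 on the log2 scale, or 1.34-fold (adjusted p = 0.0479), with samples that overlapped.

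*Gnao1* encodes the alpha subunit of Go, and its 2 probes lie in transcript variants that end differently. Probe 1 belongs to variant A and lies at chr8:96493228-96493287, and probe 2 belongs to variant B and lies at chr8:96480068-96480127 (mm9, + strand). They are printed because they are assigned to different variants, the first 30 bases of probe 1 and all 60 of probe 2.
Gnao1 probe 1: ctgccagcctacttctctaatggattcctg
Gnao1 probe 2: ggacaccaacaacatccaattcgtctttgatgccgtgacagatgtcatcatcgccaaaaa
Probe 1 gave 567, 560, 497 and 517 in EL and 1950, 1737, 1681 and 1615 in EH. It gave 121, 163, 269 and 221 in PL and 2142, 2313, 2308 and 3050 in PH. No sample of an ITGA6high fraction came near the ITGA6low samples of its stage. Probe 1 was called in EH (3.26-fold, log2 fold-change 1.70 ± 0.20 SE, adjusted p = 6.99e-05) and in PH (13.1-fold, 3.72 ± 0.20, adjusted p = 2.58e-08).

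The fraction effect of *Gnao1* probe 1 was larger at P2 than at E15.5, by 2.01 on the log2 scale (adjusted p = 0.001). The ITGA6low side moved with the stage. PL was 2.89-fold lower than EL (log2 fold-change -1.53, adjusted p = 5.85e-05), whereas PH against EH gave 0.48 (95% interval 0.06 to 0.90, adjusted p = 0.124). From low to high the order was therefore PL, EL, EH, PH, with EH and PH not separated by the test. Within slides 1 and 3 the E15.5 log2 fold-change was 1.70 and 1.67.

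Variant B of *Gnao1*, read by probe 2, was dim. It gave 20.3, 18.7, 53.8 and 24.8 in EL, where 3 of 4 arrays were well above background, and 56.8, 55.0, 43.3 and 37.7 in EH. In PL the values were 9.59, 7.47, 4.04 and 7.81 with 0 of 4 arrays well above background, and in PH 68.7, 55.9, 38.7 and 39.5. EL and EH overlapped through EL sample 6 (log2 difference 0.83, 95% interval 0.10 to 1.57, adjusted p = 0.201), and without that sample the difference was 1.17 and passed the test (adjusted p = 0.0273). PH was at least 2.53-fold above PL, when PL is set to the dimmest signal that was well above background on each array, and the fitted change had an adjusted p of 5.36e-05. The fitted stage difference was 2.00 on the log2 scale (adjusted p = 0.039), yet it did not pass with the sample numbers as a replicate block (adjusted p = 0.0627), nor in 10 of the 16 fits that left out 1 sample. Those were the fits without EL sample 8, without any of EH samples 2, 3, 6 and 8, without PL samples 3, 4 or 5 and without PH samples 2 or 3, with adjusted p between 0.0522 and 0.0853. With dim signals raised to that limit the stage difference was 0.51 (adjusted p = 0.340).

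*Gnai2*, the Gi alpha subunit, was read at chr9:107516892-107516951 (mm9, - strand). Its signal was 3365, 3383, 3120 and 3253 in EL and 1957, 2307, 2977 and 2967 in EH. It was 1931, 2145, 1935 and 2497 in PL and 1412, 1468, 1315 and 1306 in PH. Each ITGA6high sample lay below each ITGA6low sample of the same stage. *Gnai2* fell by 0.62 on the log2 scale in PH, or 1.54-fold (SE 0.13, adjusted p = 0.00408). For EH against EL the difference was -0.38 (95% interval -0.66 to -0.11, adjusted p = 0.0907), and within slides 1 and 3 it was -0.48 and -0.13. It passed the test without EH sample 6 (-0.47, adjusted p = 0.0473) and under 5 other alternatives (adjusted p 0.0305 to 0.0445), among them the test of the study's methods. The group order was EL, EH, PL, PH from high to low. EL and EH were not separated by the test at these settings, nor were EH and PL (-0.25, 95% interval -0.52 to 0.02, adjusted p = 0.201).

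*Kcnj3* encodes GIRK1, which needs a partner such as GIRK4 to reach the cell surface. Probe 1 lies at chr2:55290214-55290273 and probe 2 at chr2:55447862-55447921 (mm9, + strand), and both are assigned to the same transcript. The sequences are shown since the widest fraction difference among the 8 genes was read with them, in full for probe 1 and the first 30 bases for probe 2.
Kcnj3 probe 1: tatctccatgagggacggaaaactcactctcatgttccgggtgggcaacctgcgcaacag
Kcnj3 probe 2: tttggctgataagataatcctccctatgaa
Probe 1 gave 12.6, 24.1, 6.14 and 6.27 in EL, with EL sample 3 alone well above background, and 150, 201, 177 and 169 in EH. It gave 12.6, 16.6, 23.8 and 8.93 in PL, all at background, and 478, 401, 426 and 535 in PH. Thus *Kcnj3* was measured in every ITGA6high sample and hardly at all in the others. Against EL, which was measured on 1 of 4 arrays only, the fitted change in EH was 16.6-fold (log2 fold-change 4.06 ± 0.39 SE, adjusted p = 1.33e-05). PH was at least 23.2-fold above PL (adjusted p = 8.9e-07).

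Probe 2 of *Kcnj3* stayed at 3.37 to 9.89 in EL and 3.87 to 12.8 in PL, with 0 of 8 of these arrays well above background. It gave 92.8, 118, 115 and 89.8 in EH and 256, 277, 283 and 314 in PH. The bound was at least 6.34-fold for EH over EL (adjusted p = 7.21e-06) and at least 14.5-fold for PH over PL (adjusted p = 5.6e-07). Both probes thus gave the same direction and the same calls. Within slide 1 each EH sample lay above each EL sample with either probe, and so did EH sample 6, the only EH sample on slide 3.

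From EH to PH, *Kcnj3* rose 2.64-fold with probe 1 (log2 fold-change 1.40, adjusted p = 0.0216) and 2.73-fold with probe 2 (1.45, adjusted p = 0.014). EL and PL share the lower end of the order, with no fold to be given for probe 2 where neither group was detected. The fraction effect did not pass the test for a stage difference (probe 1, 0.92 on the log2 scale, 95% interval -0.26 to 2.10, adjusted p = 0.589), and the ITGA6low side lay at background. With dim signals raised to the limit of detection it was 1.26 with probe 1 (adjusted p = 0.0077) and 1.19 with probe 2 (adjusted p = 0.00296), and it passed with normexp background correction as well. Raising them sets most ITGA6low values to that limit, so the difference then largely restates the rise from EH to PH.

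*Kcnj5*, the GIRK4 subunit, was read at chr9:32122418-32122477 (mm9, - strand). The first 30 bases of the probe are shown beside those of *Kcnj3*, since together they read the channel.
Kcnj5: ttagtaagataacagacccaatcaggtttc
The signal was 1457, 1444, 1461 and 1159 in EL and 4883, 4894, 4018 and 4213 in EH. It was 2500, 2991, 2748 and 2650 in PL and 8850, 9780, 11464 and 10499 in PH. In contrast to *Kcnj3*, the gene was detected in all 16 samples, and the 4 groups did not overlap with each other. *Kcnj5* was called in EH (3.26-fold, log2 fold-change 1.71 ± 0.11 SE, adjusted p = 3.37e-07) and in PH (3.72-fold, 1.90 ± 0.11, adjusted p = 3.89e-08). It rose with the stage in both fractions, 1.98-fold in PL over EL (adjusted p = 1.18e-05) and 2.25-fold in PH over EH (adjusted p = 3.28e-06). The order from low to high was EL, PL, EH, PH, and PL was 1.65-fold below EH (adjusted p = 0.00014). The stage difference of the fraction effect was 0.19 (95% interval -0.13 to 0.51, adjusted p = 0.724). Within slides 1 and 3 the E15.5 log2 fold-change was 1.84 and 1.47.

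*Rgs6* encodes the RGS protein of this circuit that pairs with Gβ5. Probes 1 and 2 lie at chr12:84259211-84259270 and chr12:84234671-84234730 in the same transcript, and probe 3 at chr12:84193105-84193164 in another transcript model (mm9, + strand). Probe 2 is printed as the base of the regulator's result.
Rgs6 probe 2: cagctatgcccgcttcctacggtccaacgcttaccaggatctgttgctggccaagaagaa
Probe 1 gave 53.6, 66.0, 42.7 and 37.9 in EL and 140, 119, 91.3 and 146 in EH. It gave 137, 156, 153 and 127 in PL and 385, 359, 397 and 329 in PH. Within each stage the fractions were apart. *Rgs6* probe 1 rose 2.49-fold in EH (log2 fold-change 1.32 ± 0.17 SE, adjusted p = 0.000211) and 2.57-fold in PH (1.36 ± 0.17, adjusted p = 9.08e-05).

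Probe 2 of *Rgs6* gave 57.0, 36.0, 50.1 and 55.7 in EL and 127, 112, 91.8 and 114 in EH. It gave 141, 154, 172 and 124 in PL and 324, 320, 374 and 337 in PH. It rose 2.26-fold in EH (adjusted p = 0.000154) and 2.30-fold in PH (adjusted p = 6.85e-05). Both probes rose with the stage too, near 3-fold in either fraction, and for PH over EH both were called (3.002-fold with probe 1, adjusted p = 1.92e-05, and 3.06-fold with probe 2, adjusted p = 4.17e-06). The fraction effect was nearly equal at both stages, with a stage difference of 0.04 for probe 1 (95% interval -0.49 to 0.57, adjusted p = 0.971) and 0.03 for probe 2 (95% interval -0.43 to 0.48, adjusted p = 0.980). EL was lowest and PH highest, while EH and PL between them were not separated by the adjusted p. PL against EH gave 0.23 with probe 1 (adjusted p = 0.426) and 0.41 with probe 2 (95% interval 0.09 to 0.73, adjusted p = 0.0683). Within slides 1 and 3 probe 1 gave 1.58 and 0.78 for EH against EL, and probe 2 gave 1.06 and 1.11.

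Probe 3 of *Rgs6* gave 4.31 to 20.6 and was not well above background in any sample. The same held for *Rgs4*, another RGS protein, of which probe 1 at chr1:171671609-171671668 gave 4.13 to 11.1 and probe 2 at chr1:171672488-171672547 gave 3.47 to 7.18 (mm9, - strand). No fold is given for these 3 probes, whose levels lay below what the arrays could resolve in each group.

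**Figure D2:**
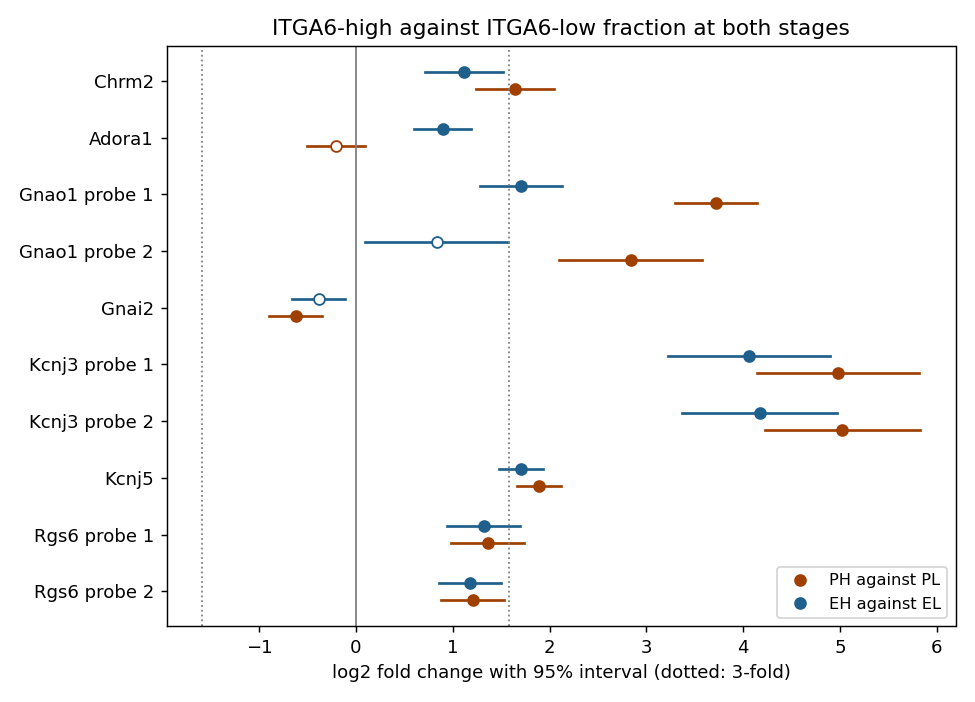
Log2 fold-change of the ITGA6high against the ITGA6low fraction at E15.5 (blue) and P2 (brown) for the 10 detected probes, with the 95% interval of the limma fit. Filled points have an adjusted p of at most 0.05, and dotted lines mark 3-fold. The intervals of both stages are apart for *Gnao1* probe 1 (1.70 and 3.72), for *Gnao1* probe 2 and for *Adora1* (0.89 and -0.21) and lie on each other for *Rgs6*. For *Kcnj3* and for *Gnao1* probe 2 at P2 the fitted values are set against background.

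Of the 13 probes, 3 passed the test for a stage difference of the fraction effect, against 3.15% of the array, and 2 were called, against 1.2%. They were *Adora1* and both *Gnao1* probes, of opposite sign. For PL against EL, 8 probes passed, 4 higher and 4 lower, against 19.7% of the array, and 1 was called against 3.75%. The called probe was *Gnao1* probe 2, by a fitted fall of 3.87-fold set against background in PL. As a bound, EL was at least 1.37-fold above PL, under the 3-fold limit. For PH against EH, 8 probes passed, 6 higher and 2 lower, against 17.5%, and 3 were called against 3.39%. Members near 3-fold made these counts of called probes move when 1 sample was left out. For PL against EL the count was 3 without EL sample 2, 4 without PL sample 5, 1 without PL sample 3 and 2 without any other sample, and for PH against EH it was 1 without EH sample 6 or PH sample 4 and 4 without PH sample 5. The genes that rose in both ITGA6low and ITGA6high cells between the stages were *Chrm2* (2.25-fold in PL over EL, adjusted p = 0.000392, and 3.24-fold in PH over EH, adjusted p = 2.09e-05), *Kcnj5* and *Rgs6*. *Gnai2* fell in both (by 0.63, adjusted p = 0.0022, and by 0.87, adjusted p = 0.000209, on the log2 scale), and so did *Adora1* (by 0.42, adjusted p = 0.0479, and by 1.52, adjusted p = 3.6e-06). The E15.5 and P2 samples were sorted by different protocols and lay on different slides, so stage, sort and slide cannot be told apart in these comparisons.

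Among 22244 probes measured on every array and well above background in at least 1 group, the named genes whose log2 signals over the 16 samples were most like *Kcnj3* were *Mybphl* (r = 0.98), *Stard10* (r = 0.98) and *Tbx5* (r = 0.98). Among the genes most like *Kcnj5* were *Nudt4* (r = 0.99) and *Pdzrn4* (r = 0.99), and *Chrm2* was most like *Rabgap1l*, *Gm1078* and *Nrtn* (r = 0.98 each). For *Gnao1* the closest were *Olfm1*, *Gng2* and *Fras1* (r = 0.98 each), of which *Gng2* encodes a G protein gamma subunit. *Rgs6* was closest to *Pnck*, *Kcnk3* and *Smox* (r = 0.97 each), and *Adora1* to *Pla2g12a*, *Cited1* and *Gprasp1* (r = 0.95 each). *Gnai2* was closest to *Gm3134*, *Rps24* and *St3gal5* (r = 0.96 each). These correlations describe profiles that mostly reflect the 4 group means of shared samples.

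The promoter of *Kcnj3* and that of *Kcnj5*, the channel genes that were called at both stages, are shown as the 250 bases before the transcription start in RefSeq's annotation of GRCm38.p6, a newer build than mm9. *Kcnj3* is at chr2:55435720-55435969 on the + strand and *Kcnj5* at chr9:32344345-32344594 on the - strand, both 5′ to 3′. Capitals mark the match found.
Kcnj3: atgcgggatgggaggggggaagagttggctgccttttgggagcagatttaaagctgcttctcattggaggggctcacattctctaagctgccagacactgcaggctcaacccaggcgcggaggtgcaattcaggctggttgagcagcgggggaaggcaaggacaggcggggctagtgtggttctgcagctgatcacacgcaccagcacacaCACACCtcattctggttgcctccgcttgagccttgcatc
Kcnj5: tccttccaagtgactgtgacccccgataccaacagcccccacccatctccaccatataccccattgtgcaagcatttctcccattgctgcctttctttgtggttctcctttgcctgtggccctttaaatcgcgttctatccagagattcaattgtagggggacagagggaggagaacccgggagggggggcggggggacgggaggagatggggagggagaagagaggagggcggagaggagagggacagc
Searched on both strands were GGTGTG, the core bound by T-box factors, AGGTCA, the core bound by many nuclear receptors, and AGATAA, the core bound by GATA factors. A match is only a run of letters. The *Kcnj3* window held GGTGTG once, on the opposite strand at 39 bases before the start (position -39) and overlapping no other motif, and that of *Kcnj5* held none of the 3. Of the 8 windows found for 7 of the genes (*Gnai2* was not matched), 3 held GGTGTG, namely both of *Adora1* and that of *Kcnj3*. GGTGTG stands in 16.3% of 32851 such windows, AGGTCA in 14.0% and AGATAA in 9.99%, and 0 of the 8 windows held either of the latter.

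The rest of the pathway was followed with 84 other genes in 9 groups, of which 82 had a probe, the brightest standing for the gene. For EH against EL, 14 passed higher and 8 lower, with a median log2 fold-change of 0.15. For PH against PL, 18 passed higher and 5 lower, with a median of 0.10. Over the array 8.1% and 11.6% of all probes passed in these comparisons, and 19% and 27.9% of those well above background, beside which the counts of the groups that follow are also to be read. The other muscarinic receptors were not seen, since *Chrm1*, *Chrm3* and *Chrm5* were well above background on 0 of 16 arrays and *Chrm4* on 1. Among the adenosine receptors, *Adora2b* and *Adora3* were at background too, and *Adora2a*, named after its values were seen, rose from 27.1 ± 8.61 in EL to 78.6 ± 29.2 in EH (SD, n = 4, adjusted p = 0.00399). The neuronal channel subunits were as low, with *Kcnj6* well above background on 0 of 16 arrays and *Kcnj9* on 1.

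Of 9 other alpha subunit genes, 1 passed at E15.5 and 3 at P2, all higher and all under 3-fold. *Gnai1* gave 263 ± 4.31 in EL and 235 ± 14.4 in EH at E15.5, and 180 ± 20.8 in PL and 189 ± 32.4 in PH at P2, with no fraction difference detected (adjusted p = 0.522 and 0.918). *Gnai3* gave 1041 ± 56.3, 1090 ± 73.1, 460 ± 46.6 and 589 ± 26.95 in the same order and rose 1.28-fold in PH (adjusted p = 0.00691). Of the 5 beta subunit genes, 0 passed higher and 1 lower in EH, and 2 passed higher and 1 lower in PH. *Gnb3* (2.82-fold, adjusted p = 0.000312) and *Gnb4* (2.64-fold) rose in PH, and *Gnb1* fell in both, by 0.30 and by 0.22 on the log2 scale. *Gnb5*, the partner of RGS6, gave 1181 ± 106, 1325 ± 87.3, 1005 ± 135 and 1253 ± 119, with no difference that passed (adjusted p = 0.475 at E15.5 and 0.0659 at P2). Its second probe did not pass either (adjusted p = 0.0538 and 0.684).

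Of the 10 gamma subunit genes, 3 passed higher and 2 lower in EH, and 3 passed higher and 0 lower in PH. *Gng11*, named after its values were seen, rose at both stages (2.37-fold, adjusted p = 9.78e-05, and 2.12-fold, adjusted p = 0.000174), and its stage difference did not pass (adjusted p = 0.828). The test for a stage difference of the fraction effect was passed by 4 of the 10, 3 with a positive and 1 with a negative difference, against 3.15% of the array. Of the 3 with a positive difference, *Gng8* was at background on all P2 arrays and fell in EH (adjusted p = 0.00222). In EH it was well above background on 1 of 4 arrays, so no size is given. Its positive difference (adjusted p = 0.0466) thus came with no excess in PH. *Gng2* gave 2107 ± 239 in EL and 3908 ± 469 in EH, then 961 ± 225 in PL and 5565 ± 598 in PH. It rose 1.85-fold in EH (adjusted p = 0.00298) and 5.90-fold in PH (adjusted p = 1.41e-07), with a stage difference of 1.67 on the log2 scale (adjusted p = 0.00102). *Gng13* gave 56.3 ± 19.0, 71.9 ± 9.46, 6.89 ± 2.11 and 66.4 ± 12.4, was at background in PL alone, and PH was at least 3.37-fold above PL (stage difference adjusted p = 0.00094). *Gng2* and *Gng13* were lowest in PL, as were both *Gnao1* probes. *Gng7* went the other way, with 14.9 ± 6.54, 43.7 ± 8.71, 14.7 ± 4.17 and 7.81 ± 3.07 (stage difference adjusted p = 0.0128). It was well above background on 1 of 4 arrays in EL, 1 of 4 in PL and 0 of 4 in PH, so no size is given for the difference, and its other 2 probes were well above background on 0 arrays.

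Among 19 RGS genes and R7 partners, 5 passed higher and 1 lower in EH, and 7 passed higher and 0 lower in PH. *Rgs10*, which acts on Gi-type alpha subunits, was called in both, 5.995-fold in EH (81.3 ± 11.7 to 489 ± 84.8, adjusted p = 2.01e-05) and 3.34-fold in PH (15.3 ± 5.31 to 49.8 ± 11.8, adjusted p = 0.000336, with 1 of 4 PL arrays well above background). *Rgs5*, known from pericytes, was seen in EH alone (34.8 ± 8.81, well above background on 4 of 4 arrays and on 0 of 12 others), at least 2.09-fold above EL (stage difference adjusted p = 0.000628). *Rgs7*, a close relative of *Rgs6*, was well above background in PH alone (42.6 ± 13.6, 4 of 4 arrays) and at least 2.11-fold above PL (adjusted p = 0.00108), with a stage difference that did not pass (adjusted p = 0.0631). *Gpr158*, a membrane partner of R7 proteins, was well above background on 3 PH arrays (22.3 ± 6.49) and at least 1.11-fold above PL (stage difference adjusted p = 7.38e-05), but its other probe was on 0 of 16. *Rgs12* and *Rgs11* were named after their values were seen. *Rgs12* rose 1.74-fold in EH (adjusted p = 1.06e-05) and was called in PH (3.67-fold, adjusted p = 1.76e-09, stage difference adjusted p = 6.52e-05). *Rgs11* was the gene that fell in EH (2.21-fold, adjusted p = 0.00406) and did not pass in PH (adjusted p = 0.755, stage difference adjusted p = 0.031).

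Of the 5 genes that make, carry or break down acetylcholine, *Ache*, the acetylcholinesterase gene, was called at both stages. It gave 35.5 ± 8.07 in EH and 35.3 ± 5.18 in PH and was at background in EL and PL, a difference of at least 2.14-fold (adjusted p = 9.14e-08) and at least 1.80-fold (adjusted p = 5.19e-08). *Chat* and *Slc5a7*, which neurons need to make acetylcholine, were well above background on 0 of 16 arrays. *Slc18a3*, a transporter gene of the same list, was so on 1 array of EL, 2 of EH, 1 of PL and 1 of PH. Of the 12 genes of adenosine handling, 2 passed higher and 2 lower in EH, and 1 passed higher and 3 lower in PH. Of the 13 receptor kinases, arrestins and channel regulators with a probe, 1 passed higher and 2 lower in EH, and 1 passed higher and 0 lower in PH, none of them 3-fold.

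**Figure D3:**
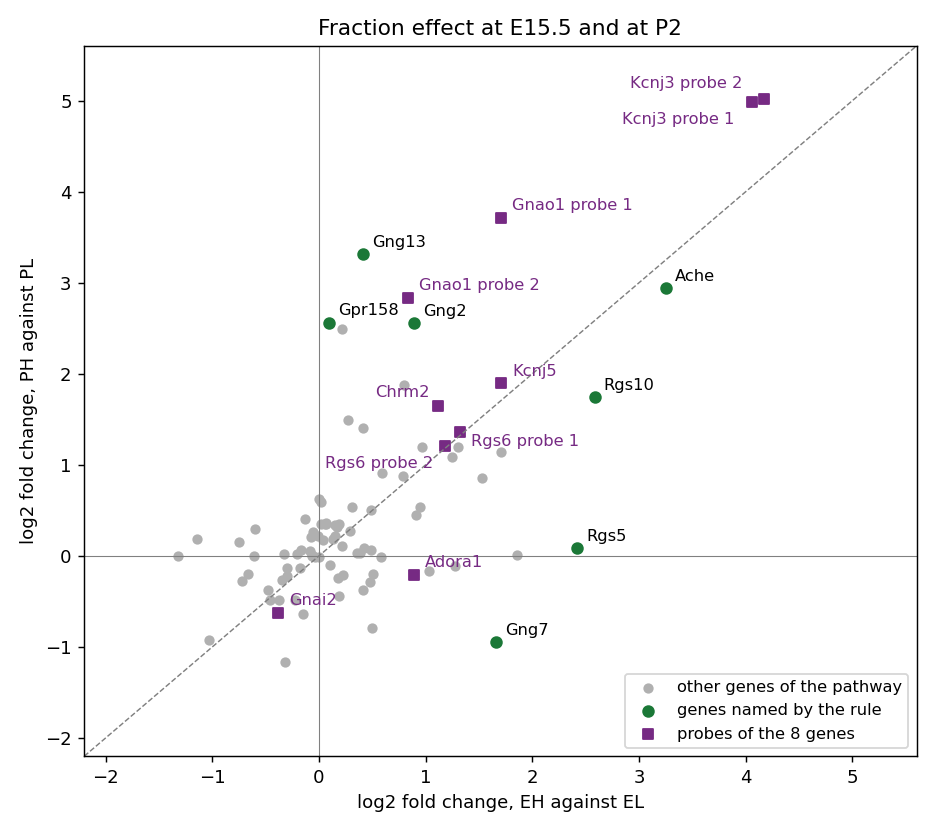
Log2 fold-change of the ITGA6high against the ITGA6low fraction at E15.5 (horizontal axis) and at P2 (vertical axis), for 82 other genes of the pathway (circles, 1 probe a gene) and the 10 detected probes of the 8 genes (squares). The dashed line marks equal effects. Fitted values are shown also where a group was at background, so that for *Kcnj3*, at the far upper right, the PL side is a bound and the EL side was measured with probe 1 on 1 of 4 arrays. *Gnao1*, *Gng2* and *Gng13* lie above the line, and *Adora1*, *Rgs5* and *Gng7* are among those below it.

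Markers of other cells were read in the same samples, since RNA of the sorted fractions is pooled over cells, and fewer cells of a type cannot be told apart from less RNA per cell. All 8 atrial genes rose and all 6 ventricular genes fell in EH and in PH. The study lists these same genes as atrial or ventricular from these arrays, so their direction is no separate check of the labels. The summed signal of the atrial genes, with *Nppa* brightest in all samples but EL sample 3, was 20790 to 26262 in EL and 12588 to 52254 in PL, against 429928 to 451615 in EH and 637994 to 740224 in PH. PL sample 4 had the highest atrial sum of its group and PL sample 2 the lowest, and the same samples were highest and lowest for *Chrm2* (303 and 162) and for *Gnao1* probe 1 (269 and 121). The part of atrial cells in those PL values was not tested. Ventricular genes were still well above background in EH, at a summed 141868 to 226917 with *Myl2* brightest, against 23872 to 36450 in PH.

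Of the 12 neuron genes, 8 were well above background in EH sample 2, and 3 to 5 in each of the other samples. *Stmn2*, a gene of neurons, and *Chat*, which cholinergic neurons need, were well above background on 0 of 16 arrays, as was *Sox10* of Schwann cells. Of the list, 3 rose in EH (*Phox2a*, *Dbh*, *Elavl4*) and 2 in PH (*Dbh*, *Elavl4*), and 1 fell in PH (*Snap25*, the brightest of the list in EL, EH and PL). *Dbh*, the dopamine beta-hydroxylase gene, gave 94.1 ± 26.7 in EL, 285 ± 49.9 in EH, 890 ± 391 among PL samples and 2456 ± 196 in PH, in the group order of *Chrm2*. *Elavl4* was at background in PL alone, as was *Gnao1* probe 2, and PH was at least 3.09-fold above PL. Its fitted stage difference, set against that background, was 1.43 on the log2 scale (adjusted p = 0.00633). The summed signal of the list was 1989 to 2495 in EL, 2710 to 3296 in EH, 4517 to 5084 in PH and 4012 to 10637 in PL, and its part in the values of the 8 genes was not tested. Of the 9 pacemaker genes, *Hcn4* and *Isl1* were well above background on 0 of 16 arrays, and *Shox2* on 1 EH array. Of the pacemaker genes, 4 rose and 1 fell in EH, and 2 rose and 1 fell in PH. *Vsnl1* was at background in EL and PL and reached 152 ± 24.2 in EH and 160 ± 41.0 in PH, and *Cacna1d* rose in both as well. *Tbx3* rose in EH (adjusted p = 0.00196) and fell in PH by 0.70 on the log2 scale (adjusted p = 0.000865, stage difference adjusted p = 0.000333), *Shox2* rose in EH (adjusted p = 1.29e-06) and *Tbx18* fell in EH (2.83-fold, adjusted p = 0.00993).

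Most of the endothelial genes rose in EH. The E15.5 gate on ERBB-2, which the study used to select CMs, and the removal of blood cells are meant to leave other cells out. Of 8 such genes 5 rose in EH and 0 in PH. The sums of the list were 3961 to 9586 in EH, 1952 to 2179 in EL, 1383 to 2154 in PH and 807 to 2100 in PL. *Egfl7* was brightest in all EH samples and alone gave 2861 to 7740 there, so the EH sums mostly follow that gene. *Kdr*, *Tek* and *Npr3* did not pass the test in EH. *Kdr* gave 1037 ± 74.8 in EL and 834 ± 197 in EH (adjusted p = 0.802). *Cdh5*, *Tie1* and *Emcn*, which define the lining of vessels and heart, were well above background in all EH samples and on 0 arrays of the other groups. EH samples 6 and 8 had the highest endothelial sums (9586 and 9320), and EH samples 2 and 3 about 4777 and 3961. *Adora1*, *Adora2a*, *Rgs5*, *Rgs10* and *Gng7* were highest in EH as a group, as was this list, and its part in their values was not tested. For *Adora1* the EH values were 829 and 880 in samples 6 and 8, and 872 and 957 in samples 2 and 3.

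Leukocyte genes were uneven, with sums of 1034, 1297 and 1976 in 3 EH samples and 9773 in EH sample 6, where *Csf1r* was brightest. In EH, 2 of the 6 leukocyte genes rose. *Rgs10* was highest in EH as well, but it ranged only from 424 to 610 over the EH samples. The part of leukocytes in its values was not tested. Of the 8 smooth muscle and pericyte genes, *Rgs5* among them, 3 rose and 1 fell in EH, and 1 rose and 2 fell in PH. *Pdgfrb* (2.15-fold, adjusted p = 0.0145) and *Kcnj8* (3.46-fold, adjusted p = 0.000126) rose with *Rgs5* in EH, *Cspg4* fell (3.16-fold, adjusted p = 2.38e-07), and *Myh11*, which defines smooth muscle, was well above background on 0 of 16 arrays. The sums of this list were 16470 to 19992 in EL and 19753 to 24134 in EH, and 5482 to 6605 in PL and 5573 to 8600 in PH. *Cnn1* was brightest in EL, EH and PH and *Abcc9* in PL. *Cnn1* alone gave 13204 to 16420 in EL and 17753 to 21997 in EH, so the E15.5 sums mostly follow 1 gene. The part of smooth muscle cells and pericytes in the *Rgs5* values was not tested. Erythroid genes (*Hba-a1* brightest) were highest in EL sample 6 (30894) and EH sample 6 (34505). Fibroblast genes summed to 12833 to 22360 in EL and 5437 to 10462 in EH, but 523 to 1627 in PL and 545 to 801 in PH, with *Col1a2* brightest throughout. Epicardial genes were likewise higher at E15.5 (2807 to 3925 in EL and 918 to 2660 in EH) than at P2 (28.3 to 106 in PL and 126 to 209 in PH). *Gnai2*, *Gnao1* probe 1 in ITGA6low cells and *Adora1* were also higher at E15.5, and the part of these cells in the stage comparisons was not tested. Without EH sample 6 the fraction changes of the 8 genes at E15.5 kept their calls, and *Gnai2* passed the test in addition.

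**Figure D4:**
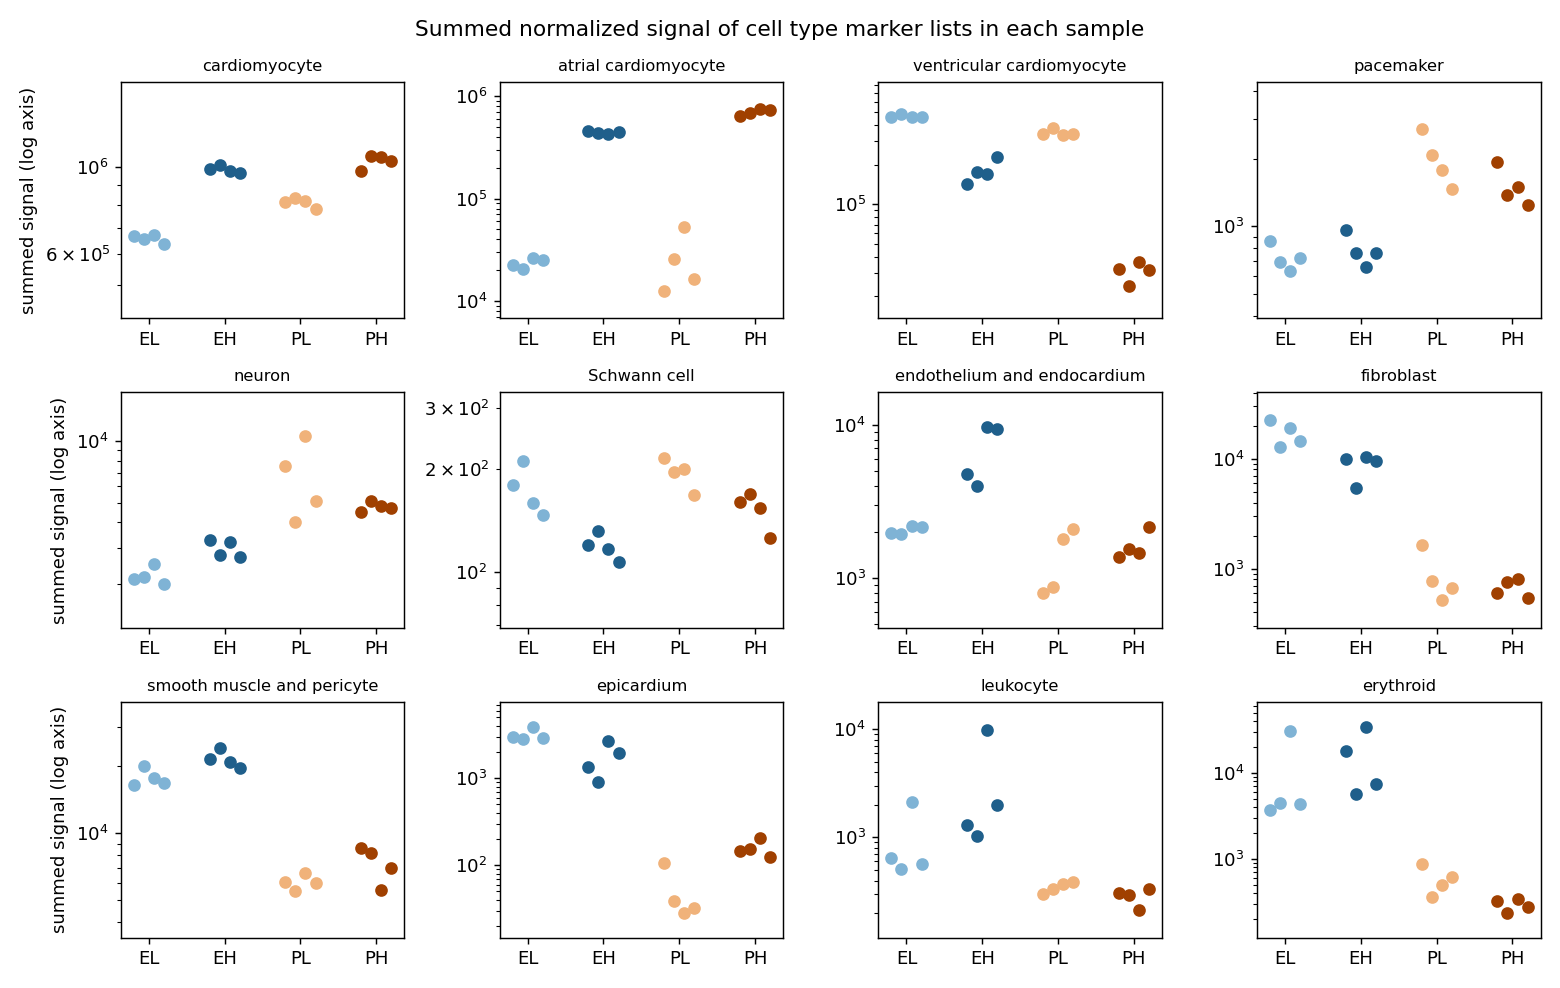
Summed normalized signal (log axis) of 12 lists of cell type markers in each sample, by group. Each point is 1 sample, each panel has an axis of its own, and sums are over 1 probe a gene. Atrial sums reach 429928 or more in EH and PH, endothelial sums are highest in EH, and fibroblast and epicardial sums are higher in EL and EH than in PL and PH.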

How the data were processed

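RNA of 16 samples, 4 each of EL, EH, PL and PH, was measured on one-color Agilent 8x60K arrays (60-base probes). The authors deposited 1 scanner file per array (Feature Extraction 10.7.3.1), which holds intensity values per spot, already background-subtracted in the processed signal, and a table of quantile-normalized log2 values. Here, spots flagged as outliers were dropped, spots of a probe averaged and the 55681 probes quantile normalized and log2 transformed, which came within 0.01 of the authors' deposited log2 values for 99.737% of them. Group means were fitted with limma 3.58.1 (R 4.3.3) over all probes. The limit was an adjusted p of 0.05 and 3-fold, from the study's methods, which used an analysis of variance with a Tukey test (the methods' test). A group with 0 of 4 arrays well above background was set to each array's lowest signal among probes well above background, or to its own if higher, for an "at least" fold. No probe was saturated.

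The 8 genes, the pathway and marker lists and the tests were chosen with earlier results of these data known. Named were all probes of the 8 genes, pathway genes called alike in both fractions' comparisons or in the stage difference, and *Kcnj6*, *Kcnj9*, *Gnb5*, *Rgs7*, *Gnai1* and *Gnai3*. The comparisons of PL with EH and of PH with EL, and other genes said to be so, were added after the data were seen. A few genes of the lists are not reported here by name. Slide 1 held EL 2, EL 8, EH 2, EH 3 and EH 8, slide 2 all P2 samples and slide 3 EL 3, EL 6 and EH 6, which was scanned on another day. Same-numbered EL and EH samples deviated together (r = 0.255, 0.189, 0.450 and 0.379 over detected probes), but over all probes r was -0.008, 0.019, 0.174 and 0.233, with 2 pairs under the limit of 0.1, so that the numbers pair them by detected probes only, whereas for PL and PH r was 0.375, 0.176, -0.031 and 0.542 over detected probes, with 1 pair under the limit. Of 120 array pairs, 0 held identical values. The methods give 4 independent experiments for each sort, the labels do not say whether same-numbered samples share one, and 4 arrays a group limit the precision. In a simulation of 55673 probes, some were changed 6-fold. The fit found 100 of 100 raised and 99 of 100 lowered probes for EH against EL. For PH against PL it found 98 and 99 of 100. Most fraction changes of the 8 genes were smaller than 6-fold, and smaller changes were not simulated. This recovery therefore does not show how well the fit finds changes of their size. Alternatives were 75th percentile scaling, normexp (offset 50), the authors' values, detected probes only, a floor at the bound, the groups compared only, the methods' test, no fold limit, the replicate block, the slide as a random or fixed term, within slides, and leaving out each sample. Probe positions are mm9, and the build of the promoter table is GRCm38.p6. Python 3.11.15, pandas, numpy and matplotlib made tables and figures.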

Additional observations from a re-analysis of the deposited data

Results flagged for a closer look

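Of 34 groups of 4 samples in which a probe of the 8 genes was detected throughout, 1 held a sample that stood apart by Dixon's test, where chance gives about 1 in 20. It was *Kcnj5* in EL, with 1159 in sample 8 beside 1444 to 1461 in the others. Without EL sample 8 *Kcnj5* stayed called in EH.

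The fraction effect differed between E15.5 and P2 for *Adora1* (log2 difference -1.10, adjusted p = 0.00602 by limma), for *Gnao1* probe 1 (2.01, adjusted p = 0.001) and for *Gnao1* probe 2 (2.00, adjusted p = 0.039). For probe 2 the difference did not pass with the replicate block (adjusted p = 0.0627), in 10 of the 16 fits that left out 1 sample, or with dim signals raised to the limit of detection (0.51, adjusted p = 0.340). For *Adora1* all 4 EH samples were above all 4 EL samples, and PH and PL overlapped. For *Gnao1* probe 1 the PL samples (121 to 269) were the lowest of all 4 groups, and for probe 2 they were at background.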

How the results depend on the processing

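With the 30 fraction and stage difference results of the detected probes, 606 of 650 alternative values kept their direction and their call (adjusted p and 3-fold together), 21 lost a call, 8 gained one, 6 moved within a slide and 9 changed sign, 0 of them for a probe that passed the test. The sign changes were of *Rgs6* stage differences near 0, which ran from -0.103 to 0.164 for probe 1 and from -0.062 to 0.175 for probe 2 when each sample was left out (below 0 without EL samples 2 or 3, EH sample 6 or PL sample 5, and without EL samples 2 or 8, EH sample 6, PL sample 5 or PH sample 4). By adjusted p alone, 574 of 600 values kept their side of 0.05. The 14 that lost it were all of the *Gnao1* probe 2 stage difference. The 12 that gained it were 6 of *Gnai2* in EH, 4 of the *Kcnj3* stage difference, and 2 of *Gnao1* probe 2 in EH (with the floor and without EL sample 6). Against EL, EH had 4 called probes and 4 without each sample, 3 with normexp and 8 with no fold limit. Against PL, PH had 6, and 5 to 6 without each sample, 4 with normexp and 9 with no fold limit. These 6 include *Gnao1* probe 2 by its fitted change, whereas its bound was at least 2.53-fold, under the 3-fold limit. The 2 called stage differences fell to 1 with normexp, with the floor, with the replicate block and with the slide as a fixed term, in each case by loss of *Gnao1* probe 2, and ranged from 1 to 2 without each sample. The replicate block changed no other call of these probes. For PL against EL the count of 1 became 2 with 75th percentile scaling, 2 with the authors' values, 0 with normexp, 0 with the floor and 8 with no fold limit, and ranged from 1 (without PL sample 3) to 4 (without PL sample 5), with 3 without EL sample 2 and 2 without any other sample. For PH against EH the count of 3 became 0 with normexp and 8 with no fold limit, and ranged from 1 (without EH sample 6 or PH sample 4) to 4 (without PH sample 5). *Rgs6* and *Chrm2* lie near 3-fold there.

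Normexp, whose offset of 50 adds to every signal, gave smaller folds for dim probes (*Kcnj3* probe 2 in EH, 1.29 in place of 4.17 on the log2 scale), called 207 in place of 907 probes for EH against EL over the array, and let the stage difference of both *Kcnj3* probes pass the test (adjusted p = 2.21e-05 and 5.81e-06), as did the floor (0.0077 and 0.00296). *Gnai2* in EH passed the test with 75th percentile scaling (adjusted p = 0.0413), normexp (0.0321), detected probes only (0.0409), the floor (0.0305) and the methods' test (0.0445). Scaling to the 75th percentile moved the median of all probes to -0.18 for EH against EL, -0.14 for PH against PL and 0.19 for both stage comparisons. The depth limit here is the background, which leaves *Rgs4* unmeasured and *Kcnj3* in ITGA6low cells with a bound.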
